A study of Danio rerio with 14 samples.

Results

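The 7 genes described here encode enzymes and regulators of glycogen synthesis and breakdown: gbe1a, gbe1b, ppp1r3ca, ppp1r3cb, ppp1r3c2b, phkg1a and phkg1b. They were found by their Ensembl identifiers among the 19859 genes of the deposited expression table. All 7 were chosen from the study's own list of genes that it had called different between the same retinas, so their difference between genotypes is given as a description, with no test. Bulk RNAseq had been run on dissected retinas, retinal pigment epithelium (RPE) included, of 7 chmru848 and 7 wild-type (wt) zebrafish at 5 days post fertilisation (dpf). The chmru848 fish carry a mutation in chm, the gene for Rab escort protein 1, and model choroideremia, an inherited degeneration of photoreceptors, RPE and choroid. No fish in either group received an agent or a transgene in this experiment. The mutation is not confined to the eye, and zebrafish lack the related gene that partly covers the loss in humans, so the fish is a model of a severe, body-wide loss in which the retina is already degenerating at this age.

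Glycogen is the branched glucose store of animal cells. Glycogenin primes a new particle, glycogen synthase lengthens its chains from UDP-glucose, and the branching enzyme, made from the gbe1 genes, moves stretches of chain to form branch points. Breakdown runs through glycogen phosphorylase and the debranching enzyme, and phosphorylase is switched on by phosphorylase kinase, whose catalytic gamma subunit is encoded by the phkg genes. The ppp1r3 genes encode targeting subunits that bring protein phosphatase 1 to glycogen, where it activates the synthase and inactivates the phosphorylase. In mammalian retina, glycogen is found mainly in Müller glia. Zebrafish carry several of these genes as duplicated copies, marked by the letters a and b.

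The deposited values were on a log2 scale after a variance-stabilising transformation, which compresses the differences of low genes. Normalised counts, meaning counts scaled for the depth of each library, were recovered by undoing this transformation. Levels and folds below are in normalised counts, and differences (chmru848 minus wt, with the standard error, SE) are on the deposited log2 scale. Estimated reads on genes were 14.2 to 29.3 M per chmru848 retina and 18.1 to 26.5 M per wt retina. The most abundant gene took 5.16 to 36.6% of normalised counts in the chmru848 retinas and 6.55 to 13.7% in the wt retinas. The mutated gene, chm, had 216 to 492 normalised counts in chmru848 retinas and 264 to 432 in wt retinas, a difference that did not pass the threshold (limma, adjusted p = 0.358), so its RNA level gave no check of the labels.

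Both branching enzyme genes had lower levels in chmru848 retinas, with similar folds between the group means. In wt retinas, gbe1a ranged from 22.9 to 92.7 normalised counts with a median of 47.9. In chmru848 retinas it ranged from 1.81 to 25.2 with a median of 5.60. The groups overlapped through chmru848 replicate 4, whose 25.2 lay above the 22.9 of wt replicate 6, while the other 6 chmru848 retinas lay below every wt retina. The mean of gbe1a was 57.4 ± 26.5 (SD, n = 7) in wt and 9.67 ± 8.83 (SD, n = 7) in chmru848 retinas, a 5.94-fold lower level and a difference of -1.25 (SE 0.24). In 2 chmru848 retinas gbe1a lay under 3 estimated reads, the floor below which a gene was not taken as seen. For gbe1b, wt retinas ranged from 42.3 to 165 normalised counts with a median of 115, and chmru848 retinas from 5.84 to 39.8 with a median of 15.3. Every chmru848 retina lay below every wt retina, although the nearest wt value, 42.3 in wt replicate 7, was close to the highest chmru848 value. The mean of gbe1b was 115 ± 37.6 (SD, n = 7) in wt and 18.6 ± 11.6 (SD, n = 7) in chmru848 retinas, a 6.19-fold lower level and a difference of -1.59 (SE 0.23). In mammals, where a single gene encodes the branching enzyme, its loss leads to poorly branched glycogen.

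The genes for the glycogen-targeting subunit C of protein phosphatase 1 held both the largest and one of the smallest differences among the 7 genes. The copy ppp1r3c2b ranged from 736 to 1690 normalised counts in wt retinas with a median of 1317. In chmru848 retinas it ranged from 1.75 to 87.9 with a median of 34.2. In chmru848 replicate 4, at 1.75, it lay under 3 estimated reads. The groups were far apart, the lowest wt retina lying 8.37-fold above the highest chmru848 retina. Its mean was 1228 ± 396 (SD, n = 7) in wt and 32.2 ± 29.0 (SD, n = 7) in chmru848 retinas, a 38.2-fold lower level and a difference of -4.39 (SE 0.31). The fold lay between 33.0 and 53.7 when each retina was left out in turn. Ordered from the most negative difference, ppp1r3c2b stood at rank 16 of the 19751 genes tested.

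The copy ppp1r3ca ranged from 157 to 1097 normalised counts in wt retinas with a median of 225, and from 4.93 to 27.9 in chmru848 retinas with a median of 19.5. The highest wt value belonged to wt replicate 7, and the other 6 wt retinas lay between 157 and 257, still above every chmru848 retina. The mean was 333 ± 340 (SD, n = 7) in wt and 19.1 ± 8.46 (SD, n = 7) in chmru848 retinas, a 17.4-fold lower level and a difference of -2.58 (SE 0.32). Without wt replicate 7 the fold was 10.7, so this retina carried a large share of the wt mean.

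The most highly counted copy in both genotypes, ppp1r3cb, differed the least within this family. It ranged from 1714 to 3383 normalised counts in wt retinas with a median of 2123, and from 681 to 1836 in chmru848 retinas with a median of 999. The groups overlapped through chmru848 replicate 5, which lay above wt replicate 2, and the other 6 chmru848 retinas lay below every wt retina. The mean was 2323 ± 585 (SD, n = 7) in wt and 1064 ± 376 (SD, n = 7) in chmru848 retinas, a 2.18-fold lower level and a difference of -1.13 (SE 0.21). A further copy, ppp1r3c2a, was not in the study's list and was singled out here after its values were seen. It ranged from 23.5 to 151 normalised counts in wt retinas and from 0 to 19.7 in chmru848 retinas, with 3 chmru848 retinas at 0, and every chmru848 retina lay below every wt retina. Its mean was 8.34-fold lower in chmru848 retinas and its difference was -1.59 (SE 0.34), given as a description because of how it was picked.

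The catalytic subunit of phosphorylase kinase was represented by phkg1a and phkg1b. In wt retinas phkg1a ranged from 93.4 to 274 normalised counts with a median of 167, and in chmru848 retinas from 22.7 to 73.6 with a median of 41.4. The groups did not overlap. The mean was 166 ± 59.1 (SD, n = 7) in wt and 45.5 ± 16.9 (SD, n = 7) in chmru848 retinas, a 3.66-fold lower level and a difference of -1.32 (SE 0.22). The copy phkg1b was the lowest of the 7 genes in normalised counts, with 5.46 to 46.6 in wt retinas around a median of 17.1 and 0 to 8.95 in chmru848 retinas around a median of 2.53. Its groups overlapped, with 5 of 7 chmru848 retinas below every wt retina, and 4 chmru848 retinas lay under 3 estimated reads, including replicate 1 at 0. The mean was 18.8 ± 13.9 (SD, n = 7) in wt and 3.62 ± 3.38 (SD, n = 7) in chmru848 retinas, a 5.21-fold lower level and a difference of -0.74 (SE 0.21), which the transformation compresses at this level.

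**Figure D1:**
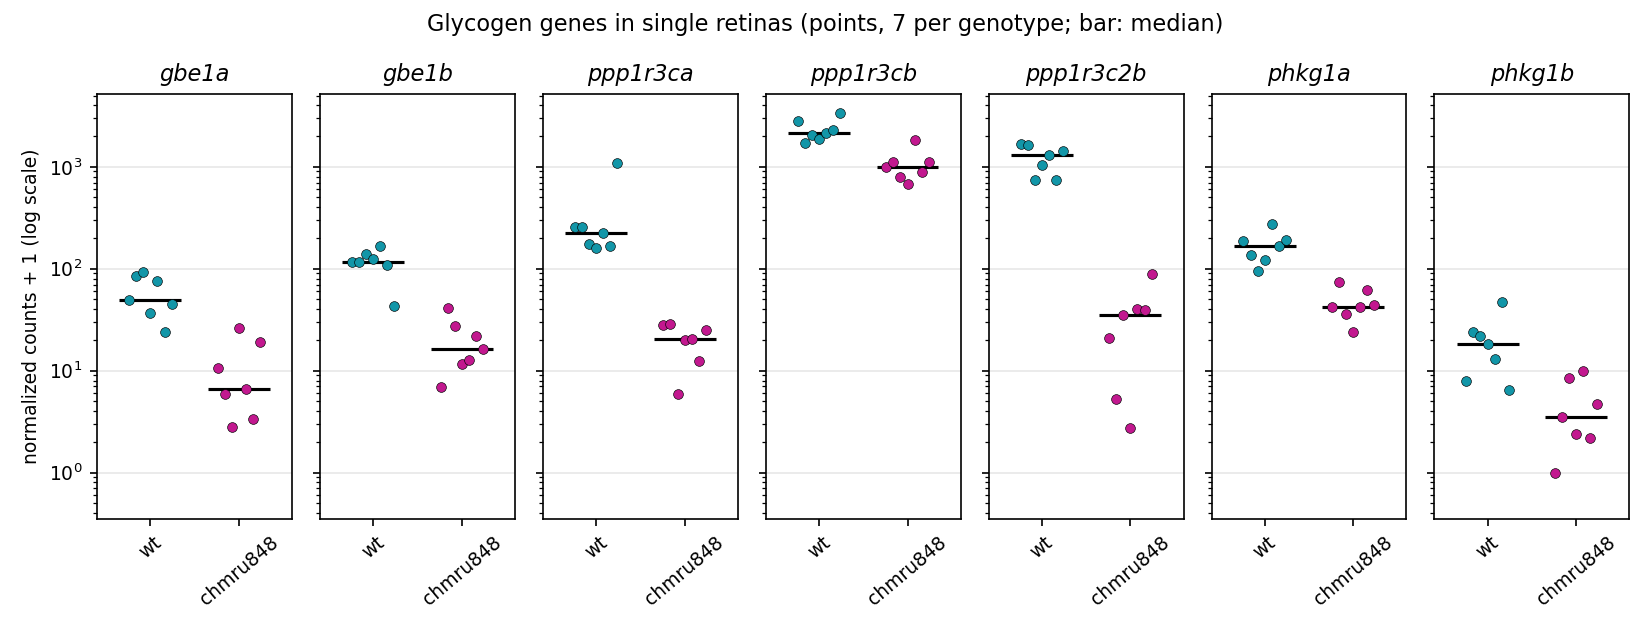
Normalised counts plus 1 (vertical axis, log scale) of the 7 glycogen genes in each retina, with 7 wt and 7 chmru848 retinas per gene as points and the median as a bar. The groups lie apart for gbe1b, ppp1r3ca, ppp1r3c2b and phkg1a and overlap for gbe1a, ppp1r3cb and phkg1b, and the high wt point of ppp1r3ca is wt replicate 7 with 1097 normalised counts.

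All 7 genes were lower in chmru848 retinas and past the threshold of the fit across all genes (limma, adjusted p under 0.05), where 23.7% of the 19751 genes tested were called lower and 19.9% higher. Groups did not overlap for 4 of the 7, beside 7.98% of genes tested with every chmru848 retina below every wt retina. Since the same contrast chose the genes, these counts carry no weight of their own. The median difference over the 7 genes was -1.32, with a range from -4.39 to -0.74, beside a median of -0.06 over all genes tested. In bulk tissue, fewer cells of a type and less RNA per cell cannot be told apart. Of the cell type marker lists, photoreceptor markers summed to 155894 to 717348 normalised counts in chmru848 retinas and 523773 to 3446100 in wt retinas. Of these 15 markers, 6 had every chmru848 retina below every wt retina, beside 7.98% of genes tested. By their medians, PDE6C (19033 against 15901) and the pair named ARR3 (24339 against 14242 and 32162 against 17092) were higher in chmru848 retinas. The other photoreceptor markers had lower medians there. The sum over 10 inner retina markers was 14141 to 25473 in chmru848 and 27809 to 51651 in wt retinas. Only 1 of these 10 markers, of the pair named RBPMS2, did not overlap between groups, beside the same 7.98% of genes tested. By its median, 1 of the pair named PRKCA was higher in chmru848 retinas, 370 against 243. The other inner retina markers had lower medians there. The sum over 7 Müller glia markers overlapped between groups, at 38741 to 138716 in chmru848 and 52919 to 106414 in wt retinas, with medians of 61695 and 72784. Among these markers, rlbp1a, a retinoid-binding protein of Müller glia, had 471 to 2110 normalised counts in chmru848 and 3705 to 10772 in wt retinas, whereas gfap, an intermediate filament gene of reactive glia, had 235 to 690 and 14.7 to 112. By their medians, apoeb (19516 against 12502) and 1 of the pair named GLUL (15516 against 11145) were also higher in chmru848 retinas. The other GLUL (15301 against 33472) and the pair named SLC1A2 (1035 against 1456 and 2427 against 3197) were lower. Skeletal muscle, a glycogen-rich tissue that could be carried along in dissection, had 12 markers whose sum overlapped, at 193 to 1931 in chmru848 and 264 to 1873 in wt retinas. The median of this sum was lower in chmru848 retinas, 462 against 718. By their medians, NEB (63.9 against 18.3) and 1 of the pair named ACTA1 (41.6 against 9.61) were higher there, and the other muscle markers were lower. Only MYBPC1 of this list did not overlap between groups, at 0 to 2.35 in chmru848 and 2.39 to 24.8 in wt retinas, beside the same 7.98% of genes tested. The sums over the other lists also overlapped between groups. For 10 RPE and pigment markers the sum was 12872 to 34787 in chmru848 and 19611 to 43395 in wt retinas, with medians of 17465 and 23034. Much of this sum was bhlhe40, with a median of 11851 in chmru848 and 9342 in wt retinas. Every other marker of this list had a lower median in chmru848 retinas. Among them, pmelb did not overlap between groups, with medians of 159 and 1353. For 9 lens markers it was 66.4 to 28155 and 39.1 to 114884, with medians of 208 and 5337. For 2 blood markers it was 94.1 to 741 and 286 to 2324, with medians of 180 and 1033. The sum over 4 macrophage and microglia markers was higher in chmru848 retinas by its median, 19673 against 12538. Almost all of it was apoeb, also counted in the Müller glia list, with medians of 19516 and 12502. By their medians, ptprc was higher (12.4 against 4.91), csf1ra was 8.98 against 8.10, and lcp1 was lower (12.7 against 32.4). The sum over 2 vessel markers was lower, 546 against 772. No marker in these lists was at 0 in 7 or more retinas. The part of cell composition in the lower levels of the 7 genes was not tested.

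Around the 7 genes, 32 other genes of the glycogen pathway could be matched to an identifier, and 16 of them fell, 1 rose and 15 did not pass the test (limma, adjusted p threshold 0.05), beside 23.7% of all genes tested called lower and 19.9% called higher. Their median difference was -0.57, with a range from -3.25 to 0.67. Of these 32, 12 came from the same list of the study's own calls, and all 12 fell, which is no independent evidence of their direction. These were gyg1b, gys1, ugp2a, ugp2b, agla, pygmb, phkb, ppp1r3b, ppp1r3db, inpp5ka, inpp5kb and si:ch211-167b20.8, whose differences are given below as descriptions, with no p-value. Because this contrast chose these 12, the 16 of 32 called lower and the median of -0.57 carry no weight of their own. Among the 20 genes outside that list, 4 fell, 1 rose and 15 did not pass, with a median difference of -0.22. These 20 were what remained once the study's own calls were set apart, which lowers the share called among them. The 4 of 20 called lower, beside 23.7% of all genes tested, can therefore not say how the pathway compares with the rest of the table.

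On the side of synthesis, gyg1b, a copy of the glycogenin gene that primes new glycogen, fell from 1544 ± 1105 (SD, n = 7) to 111 ± 59.2 (SD, n = 7) normalised counts with no overlap between groups, a difference of -3.25 (SE 0.36). The gene named GYG1 in the reference table did not pass the test, with a difference of -0.42 (SE 0.19, limma, adjusted p = 0.0796), though it passed without chmru848 replicate 6. A further glycogenin gene, gyg2, rose from 1.93 to 16.7 normalised counts (limma, adjusted p = 0.0396), but 5 of 7 wt retinas lay under 3 estimated reads. The call was lost without any of chmru848 replicates 1, 4 or 6 or wt replicates 2, 4, 5, 6 or 7. Its limma adjusted p lay between 0.00644 and 0.208 over the 23 alternatives that tested this gene. The synthase gene gys1 fell from 297 ± 162 (SD, n = 7) to 140 ± 52.9 (SD, n = 7), a difference of -0.86 (SE 0.27). Of the 4 genes that supply UDP-glucose, 3 fell. These were pgm1, the phosphoglucomutase that interconverts glucose 1-phosphate and glucose 6-phosphate, and the UDP-glucose pyrophosphorylases ugp2a and ugp2b. The differences of ugp2a and ugp2b were -0.86 (SE 0.23) and -0.74 (SE 0.21). The change in pgm1, which was not in the study's list, was from 1158 ± 315 (SD, n = 7) to 466 ± 170 (SD, n = 7) normalised counts with no overlap, a difference of -1.28 (SE 0.23, limma, adjusted p = 0.000216). PGM2 had a difference of 0.16 (SE 0.29) and did not pass.

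On the side of breakdown, agla, which encodes the debranching enzyme, fell from 762 ± 206 (SD, n = 7) to 150 ± 76.8 (SD, n = 7) normalised counts with no overlap, a difference of -2.14 (SE 0.25). Of the 3 phosphorylase genes matched, the muscle-type copy pygmb fell by 0.98 on the deposited log2 scale (SE 0.34). It came from the study's list, so its call is no test, and that call was lost without chmru848 replicate 3 or wt replicate 6. PYGB, the brain type, lay just outside the threshold with a difference of -0.58 (SE 0.24, limma, adjusted p = 0.0571), and passed in 5 of 23 alternatives, among them those without chmru848 replicate 5, chmru848 replicate 6 or wt replicate 6. The liver type PYGL differed by -0.05 (SE 0.26, limma, adjusted p = 0.892). Of the 4 other phosphorylase kinase subunit genes, the regulatory beta subunit gene phkb fell from 673 ± 105 (SD, n = 7) to 283 ± 94.9 (SD, n = 7) with no overlap, a difference of -1.18 (SE 0.19). PHKG2, the other gamma subunit gene, had a difference of -0.17 (SE 0.24) and did not pass, nor did the alpha subunit genes phka1a and PHKA2. Whether phkg1a and PHKG2 differed in their response was not tested.

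Among the regulators, 2 of 5 other targeting subunit genes of protein phosphatase 1, ppp1r3b and ppp1r3db, fell by 0.81 and 0.996 on the deposited log2 scale. Both were low genes, with mean levels of 23.4 and 25.1 normalised counts in wt retinas. They lay under 3 estimated reads in 5 and 4 of 7 chmru848 retinas, and their means there were 4.38-fold and 5.79-fold lower. ppp1r3aa, PPP1R3D and PPP1R3G did not pass, at differences of 0.03, -0.51 and -0.28, although PPP1R3D passed without wt replicate 1. Of the 4 synthase kinase genes, 1 of the pair named GSK3A (ENSDARG00000015681) fell by 0.61 (SE 0.15, limma, adjusted p = 0.00364), while its namesake and both GSK3B genes did not pass. The inositol phosphatase genes inpp5ka and inpp5kb of the study's glycogen terms fell by 0.85 and 1.32. stbd1, which encodes a glycogen-binding protein, fell by 0.59 (SE 0.20, limma, adjusted p = 0.0254), a call lost without chmru848 replicate 6 and with quantile normalisation. It was also a low gene, with means of 17.4 normalised counts in wt and 6.18 in chmru848 retinas. In 2 chmru848 retinas stbd1 lay under 3 estimated reads. The unnamed gene si:ch211-167b20.8 fell by 0.56 (SE 0.19). It came from the study's list, so its call is no test. That call was lost without wt replicate 5 or wt replicate 6, with sample weights and with totals made equal. Of the 3 lysosomal glucosidase genes, gaa2 fell by 0.79 (SE 0.23, limma, adjusted p = 0.011), and the pair named GAA did not pass, with differences of 0.21 and 0.25.

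**Figure D2:**
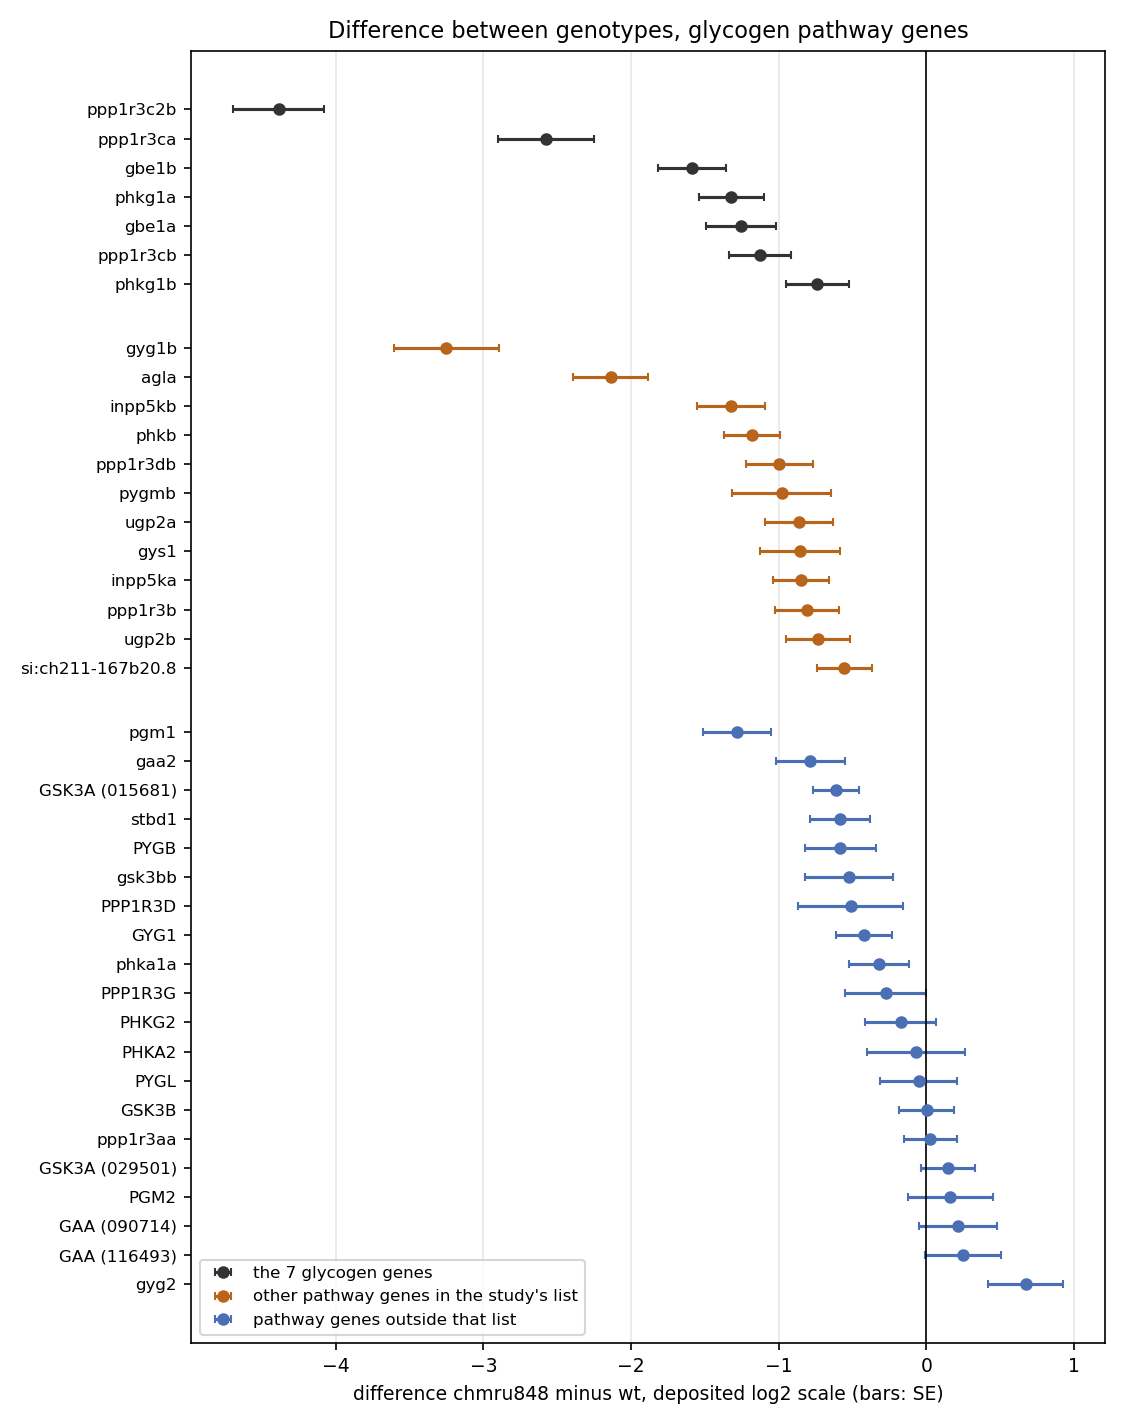
Difference between genotypes (horizontal axis, chmru848 minus wt on the deposited log2 scale) of the 7 glycogen genes, 12 further pathway genes in the study's list and 20 outside it, with SE as bars and the last digits of the identifier where genes share a name. The 7 genes run from -4.39 (ppp1r3c2b) to -0.74 (phkg1b), those in the study's list lie left of 0 by their selection, and those outside it run from -1.28 (pgm1) to 0.67 (gyg2).

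The copies of a gene did not all change by the same factor. Ratios between copies were compared between genotypes, since gene length cancels from a change in ratio, and 5 pairs were described. The log2 ratio of ppp1r3cb to ppp1r3c2b was 0.96 ± 0.54 (SD, n = 7) in wt and 5.72 ± 1.74 (SD, n = 7) in chmru848 retinas, a change of 4.76 (SE 0.69). The retinas of the genotypes did not overlap in this ratio, and the change lay between 4.34 and 5.10 when each retina was left out in turn. The ratio of ppp1r3ca to ppp1r3cb changed by -2.73 (SE 0.41) on the log2 scale, again with no overlap between genotypes. In both of these ratios the change was towards ppp1r3cb. The ratio of ppp1r3ca to ppp1r3c2b changed by 2.03 (SE 0.91) with overlapping groups.

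As shares of the counts of these 3 copies, not corrected for gene length, ppp1r3cb held 60.5% ± 8.08 (SD, n = 7) in wt and 95.4% ± 2.22 (SD, n = 7) in chmru848 retinas. The share of ppp1r3c2b was 31.8% ± 8.17 (SD, n = 7) in wt and 2.84% ± 2.45 (SD, n = 7) in chmru848 retinas. For ppp1r3ca the shares were 7.62% ± 4.87 (SD, n = 7) and 1.79% ± 0.84 (SD, n = 7). Nearly all counts of these copies in chmru848 retinas thus came from ppp1r3cb, within a family total that went from 3884 ± 1080 (SD, n = 7) in wt to 1115 ± 388 (SD, n = 7) normalised counts.

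No shift of this size was measured between the branching enzyme copies or the kinase copies. The share of gbe1a within both gbe1 copies was 33.4% ± 11.7 (SD, n = 7) in wt and 35.3% ± 27.1 (SD, n = 7) in chmru848 retinas, where it ran from 6.39 to 70.6%. The log2 ratio of gbe1a to gbe1b changed by -0.12 (SE 0.80), an error wide enough to hide a sizeable shift in either direction. gbe1a exceeded gbe1b in 3 of 7 chmru848 retinas and in 1 of 7 wt retinas. The gbe1 total went from 173 ± 55.3 (SD, n = 7) in wt to 28.3 ± 10.5 (SD, n = 7) normalised counts in chmru848 retinas. The phkg1 total was 185 ± 56.5 (SD, n = 7) in wt and 49.1 ± 16.6 (SD, n = 7) in chmru848 retinas, with a share of phkg1b of 11.1% ± 7.70 (SD, n = 7) and 7.80% ± 7.32 (SD, n = 7), and the log2 ratio of phkg1a to phkg1b changed by 0.58 (SE 0.78). The authors' counting divided reads that align to several genes between them, so shares of near-identical copies depend on that division.

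**Figure D3:**
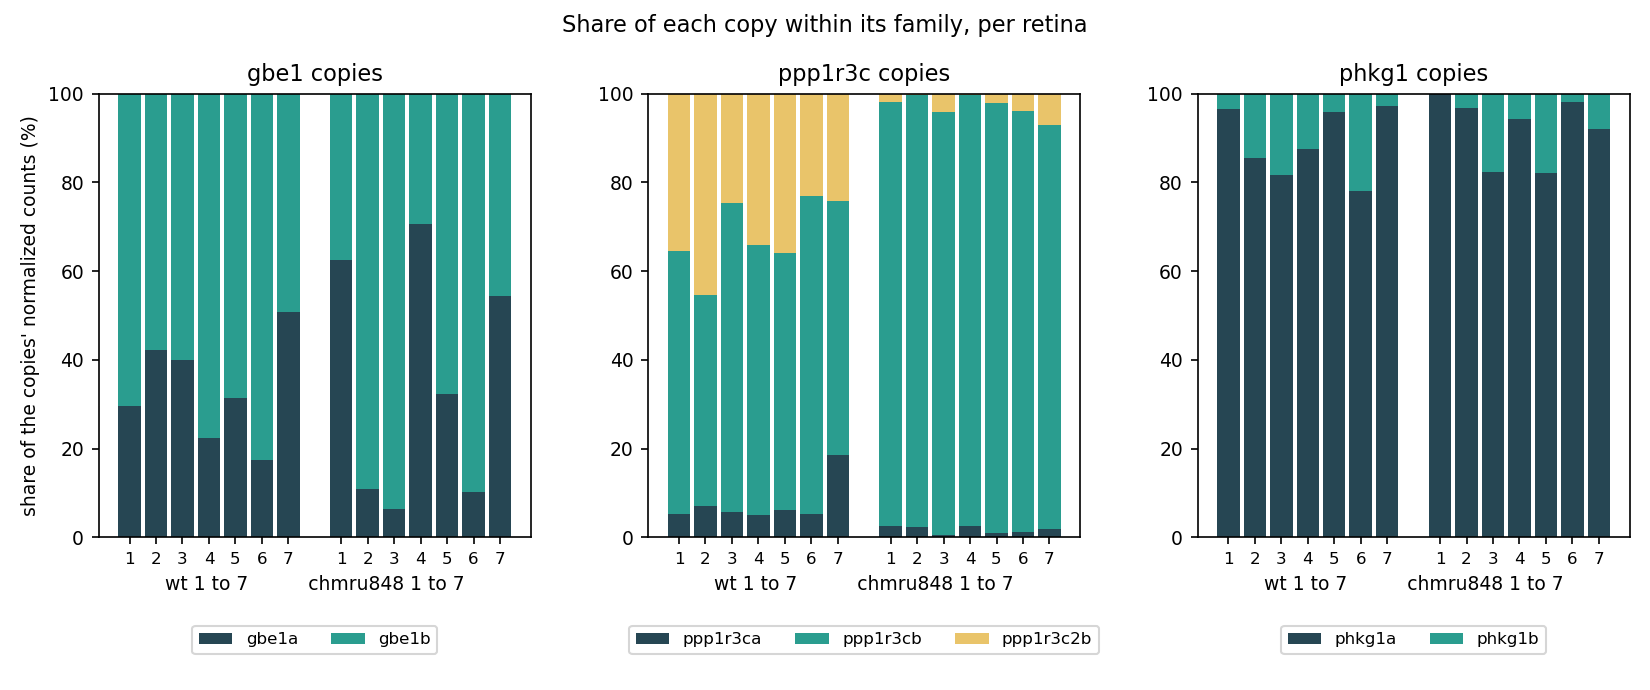
Share of each copy in the summed normalised counts of its family (vertical axis, percent, not corrected for gene length) in each wt and chmru848 retina, for the gbe1, ppp1r3c and phkg1 copies. The ppp1r3cb share was 47.6 to 71.7% in wt and 90.8 to 97.2% in chmru848 retinas, while the gbe1a share varied from 6.39 to 70.6% among chmru848 retinas.

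Within a genotype, no common rise and fall of the 7 genes was seen from retina to retina. Counting error weakens correlations of low genes, and phkg1b and gbe1a lay under 3 estimated reads in 4 and 2 chmru848 retinas. Each value was centred on the mean of its genotype, and the 21 pairs of genes were then correlated over 14 retinas, which share library and depth effects. The median Pearson r was -0.03, and 9 of 21 pairs lay above 0. The lowest was -0.70, between gbe1b and ppp1r3ca, both of which were extreme in wt replicate 7, and without that retina it was -0.19. The highest was 0.53, between ppp1r3ca and ppp1r3cb, both of which were highest among wt retinas in wt replicate 7, and without that retina it was 0.33. No retina was high or low in all 7 genes, since each had 2 to 5 genes above the mean of its genotype. Estimated reads had an r of 0.61 with ppp1r3cb and 0.60 with ppp1r3c2b, and the share of the most abundant gene an r of -0.63 with ppp1r3cb, measured in the same way.

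**Figure D4:**
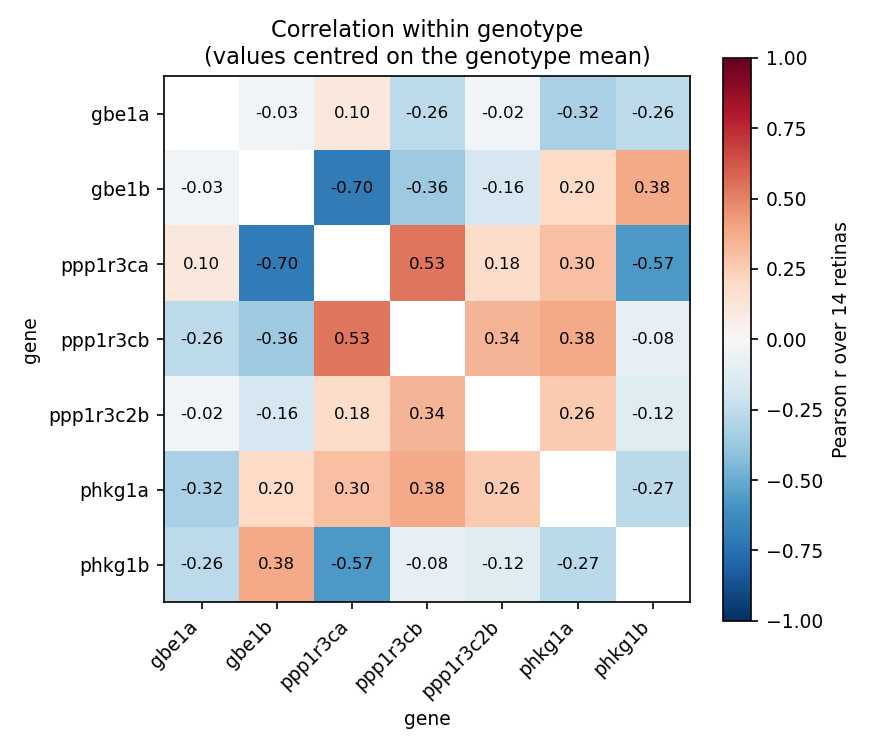
Pearson correlation (colour scale and printed values) between the 7 glycogen genes over 14 retinas, with each value centred on its genotype mean. Values run from -0.70 to 0.53 around a median of -0.03.

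The genes whose centred values were most like each of the 7 were sought among 18871 named genes, and the 2 closest are given for each. For gbe1a these were FUCA1, a lysosomal fucosidase gene, and si:dkey-23a17.1, both with an r of 0.91. For gbe1b they were si:ch211-209j12.1 (r = 0.89) and si:dkey-77f5.13 (r = 0.85), which fell to 0.77 and 0.73 without wt replicate 7. ppp1r3ca was closest to HSF2, a heat shock transcription factor gene (r = 0.93), and dynll1, a dynein light chain gene (r = 0.92), but without wt replicate 7 these were 0.64 and 0.53. ppp1r3cb was closest to tefb, a gene of a PAR bZIP transcription factor with circadian expression (r = 0.90), and zgc:65895 (r = 0.88). For ppp1r3c2b the closest genes were si:ch73-42p12.2 and commd5, both with an r of 0.91. phkg1a was closest to ACBD6 (r = 0.84) and GABBR1, a GABA-B receptor gene (r = 0.83), and phkg1b to PPARA, a fatty acid-sensing nuclear receptor gene (r = 0.86), and MPP2 (r = 0.85). No glycogen pathway gene was among these 14 neighbours. They are the highest of many correlations over 14 retinas and are given as descriptions.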

How the data were processed

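RNAseq values came from 7 chmru848 and 7 wt retinas, grouped by the sample labels. The authors trimmed reads with Trim Galore 0.6.7, aligned them with STAR 2.7.10a to GRCz11, estimated counts per gene with RSEM 1.3.3 and normalised them with DESeq2 1.38.3. The deposited table holds log2 scale values after a variance-stabilising transformation by the authors, whose settings are not given in the sources used here. The transformation was undone from the lowest value of the table, 4.35, and checked against base means listed for 250 genes (largest relative difference 1.7e-14). Depth was not given and was estimated by taking the step between low values as 1 read. Between 50.3 and 63.8% of low values lay within 5% of a step of a whole multiple, too few for a count test. The floor of 3 reads covers counting error only.

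Differences were fitted with limma 3.58.1 in R 4.3.3 (two-sided moderated test, mean-variance trend, Benjamini-Hochberg) over the 19751 genes that exceeded the table minimum in 7 or more of 14 retinas. The fit was also run on independent normal values simulated with known shifts, which checks the code and not how well its assumptions hold here. In copy ratios a pseudocount of 0.5 was added, and the SE of a ratio change came from the spread over retinas. Names came from the study's supplementary lists and a reference table that named 18974 identifiers (95.5%), often with human-style symbols. Genes named are the 7 genes, the matched genes of a pathway list, and the 2 closest genes to each. Also named are the mutated gene chm, ppp1r3c2a, and the markers PDE6C, ARR3, RBPMS2, PRKCA, rlbp1a, gfap, apoeb, ptprc, csf1ra, lcp1, bhlhe40 and pmelb. Further markers named are GLUL, SLC1A2, NEB, ACTA1 and MYBPC1. All of these but chm were singled out after their values were seen. The pathway genes gys2, phka1b, ppp1r3ab, ppp1r3e, epm2a, nhlrc1 and pygma were not analysed here. No level per coding length or sequence comparison was made. The members and lists were chosen with earlier results of these data known. Nothing states that each retina sample came from a separate clutch, so p-values measure the spread between these samples. Alternatives covered the filter, pseudocount, scaling, sample weights, trend, replicate block and each retina left out.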

Additional observations from a re-analysis of the deposited data

Results flagged for a closer look

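In 4 of 80 sets of 7 retinas examined, the highest or lowest retina stood far from the others by Dixon's criterion, which chance meets in about 1 set in 20. wt replicate 7 had the lowest gbe1b level of its group, 42.33 normalised counts against 108 to 165 in the other 6. The same retina had the highest ppp1r3ca level, 1097 against 157 to 257. wt replicate 6 had the lowest PYGB level of its group, 23.25 against 51.6 to 84.4. chmru848 replicate 1 was at 0 for gsk3bb, with 17.8 to 47.4 in the other 6.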

How the results depend on the processing

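The 7 genes were chosen on this contrast, so their calls under the alternatives say nothing about stability, and a filter on the mean left 5 of them. The median difference over the 7 genes was -1.59 with that filter, -2.73 and -2.17 on log2 normalised counts with a pseudocount of 0.5 or 5, and -2.72 with totals made equal, an alternative added after seeing the data. It lay between -1.42 and -1.21 when each retina was left out in turn. The transformation compresses low genes, so the size of these differences depends on the scale. The median over the 32 pathway genes was -0.85 with the pseudocount of 0.5 and -0.84 with equal totals, and 12 to 17 of them were called lower. The count of 12 came with the filter on the mean, which left some of them untested. Since 12 of the 32 were the study's own calls on this contrast, this range says little about stability. The pathway gene called higher, gyg2, was lost (0 genes) with sample weights, the pseudocount of 0.5 and equal totals, and leaving out each retina gave 0 to 1. The filter on the mean left gyg2 out before the fit, so it was not tested there. Over all genes the alternatives gave 3132 to 4521 higher and 3371 to 5401 lower calls. Same-numbered retinas did not deviate together (correlations of their deviations from -0.12 to 0.10), which does not show whether they shared a clutch or batch. A replicate block gave 4036 higher and 4791 lower calls, with GYG1 then past the threshold. The causes of these shifts were not tested. Among the 7 genes, depth limits phkg1b, gbe1a and ppp1r3c2b, which lay under 3 estimated reads in 4, 2 and 1 chmru848 retinas.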
